A study of Homo sapiens with 20 samples.

Results

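The genes described here are 10 coactivators and cofactors of the glucocorticoid receptor (GR): the receptor coactivators NCOA1, NCOA2 and NCOA3, the acetyltransferases EP300 and CREBBP, the arginine methyltransferase CARM1, the Mediator subunit MED1, the remodelling ATPase SMARCA4, and the lysine methyltransferases EHMT1 and EHMT2. They were chosen by name, with earlier results of these data known, out of 27896 gene symbols in the count table. The transcript with the most reads stood for each symbol. All 10 passed the filter on low counts, which kept 16432 genes, and each had at least 759 reads in every library. Their RNA levels were compared over 4 groups of libraries, and peaks of the corepressor BCOR were listed around their transcription start sites (TSS).

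The cells were HEK293-GR, derived from human embryonic kidney and made to express GR constitutively, so that receptor abundance in this model is not set by the endogenous gene alone. All cells were kept in steroid-depleted medium. For RNA, cells were transfected with 20 nM of a pool of small interfering RNAs for 72 h, either a non-targeting pool (siNON) or a pool against BCOR (siBCOR), and were given dexamethasone (dex, a synthetic glucocorticoid) at 100 nM or its ethanol vehicle for 6 h. Each pairing of pool and treatment is a group of 4 poly(A) RNA libraries, which the labels call biological replicates. The p-values measure the spread between these libraries. Chromatin for BCOR ChIP-seq came from cells given vehicle or dex at 100 nM for 1 h, with 2 libraries each. No small interfering RNA is named for the chromatin samples.

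When a glucocorticoid binds GR, the receptor attaches to DNA and recruits coactivators through short leucine-rich motifs. The NCOA proteins bind the receptor directly and serve as a platform for the acetyltransferases EP300 and CREBBP and for CARM1, while MED1 links receptors to the transcription machinery and SMARCA4 drives the SWI/SNF complexes that open chromatin. EHMT1 and EHMT2, also called GLP and G9a, form a complex that methylates lysine 9 of histone H3, a mark of silent chromatin, and both have also been described as coregulators of GR. BCOR is a corepressor that belongs to a variant Polycomb complex found mainly at CpG islands.

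Counts over the chosen transcripts ran from 18580294 to 28054808 per library. BCOR itself lay between 13.8 and 23.5 CPM (reads scaled to library size) in the 8 siBCOR libraries and between 70.6 and 227 CPM in the 8 siNON libraries. Depletion lowered BCOR 8.77-fold in vehicle and 6.36-fold in dex, and dex alone lowered it 2.09-fold in siNON cells. The receptor gene NR3C1, whose endogenous and introduced transcripts are not told apart in these counts, had mean levels of 998 and 706 CPM in siNON vehicle and dex, and of 1107 and 864 CPM in siBCOR vehicle and dex. Depletion raised it by 0.29 (log2, edgeR adjusted p = 0.000875) in dex. Of the marker lists, 4 immune and 3 endothelial genes summed to at most 0.822 and 2.07 CPM, and 3 fibroblast genes, nearly all COL1A1, to between 22.8 and 44.3 CPM. The 7 markers of HEK293 cells summed to 1113 to 1174 CPM in siBCOR dex and to 1369 to 1463 CPM in siNON dex, and the part of this shift in the results below was not tested. The hormone-induced genes FKBP5, TSC22D3 and PER1 summed to 449 to 597 CPM in siNON vehicle and 1759 to 2054 CPM in siNON dex. They summed to 310 to 381 CPM in siBCOR vehicle and 1442 to 1553 CPM in siBCOR dex, lower than in siNON cells at both treatments without overlap, and the part of this in the depletion differences was not tested.

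Several libraries stood apart from their own groups across all genes, and this touches the genes described here. The root mean square deviation of a library from the other replicates of its group was 0.373 (log2) for siNON dex replicate 4, 0.355 for siNON vehicle replicate 3 and 0.342 for siBCOR vehicle replicate 2, against 0.191 to 0.264 for the other libraries. In siNON dex replicate 4, EP300, CREBBP, SMARCA4 and NCOA2 differed from the mean of the other 3 replicates by -0.61, -0.60, -0.40 and 0.47 (log2). In siNON vehicle replicate 3 the same 4 genes differed by -0.32, -0.40, -0.49 and 0.57. In siBCOR vehicle replicate 2 they differed by -0.056, 0.086, 0.29 and -0.50. Over 16432 genes, the deviation of siNON vehicle replicate 3 correlated with the difference between siBCOR and siNON in dex (Pearson's r = 0.645). That difference was taken without siNON dex replicate 4 and shares no library with the deviation. The deviation of siNON dex replicate 4 likewise correlated with the siBCOR difference in vehicle (r = 0.343), taken without siNON vehicle replicate 3 and siBCOR vehicle replicate 2. It also correlated with the deviations of siNON vehicle replicate 3 (r = 0.654) and siBCOR vehicle replicate 2 (r = -0.550). These are descriptions across genes, which are not independent replicates and share the scaling of the libraries. No batch is given in the labels. Results on the 10 genes that rest on these libraries, and the counts for related genes, are given with and without them. Leaving out the 3 together was chosen after seeing the data, for their distance from their groups. It narrows the spread within groups, so calls gained and small p-values reached that way are descriptions and no independent support. The same limit holds for fits without siNON dex replicate 4, or without both siNON libraries apart, as these too stood apart from their groups. Fits that leave libraries out were scaled anew.

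Levels of different genes can be compared only per transcript length, as CPM per kb. In siNON vehicle, SMARCA4 was the most abundant of the 10 at 69.6 ± 11.4 CPM per kb (SD, n = 4), followed by CARM1 at 56.3 ± 5.40. EHMT2 stood at 33.4 ± 2.91, MED1 at 23.1 ± 2.97 and EP300 at 21.5 ± 3.26 CPM per kb. CREBBP (13.8 ± 2.41), EHMT1 (11.7 ± 0.963) and NCOA1 (9.69 ± 0.766) came next, and NCOA3 (5.66 ± 0.508) and NCOA2 (5.65 ± 1.26) were lowest. Neighbours in this order whose libraries overlapped were SMARCA4 and CARM1, MED1 and EP300, CREBBP and EHMT1, EHMT1 and NCOA1, and NCOA3 and NCOA2. In siBCOR dex the span from highest to lowest was narrower, with SMARCA4 at 46.2 ± 5.34 and NCOA2 at 6.92 ± 0.330 CPM per kb, and NCOA1 (15.2 ± 0.441) stood above CREBBP (11.5 ± 2.04) without overlap. The per-length scale depends on the transcript chosen, and the EHMT2 length is a mean over 7 copies that the deposited annotation lists on chromosome 6, so its counts are uncertain.

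BCOR peaks lay close to the TSS of 3 of the 10 genes. Within 5 kb, NCOA3 had a shared and a dex-enriched peak, CREBBP a shared peak and SMARCA4 a dex-enriched peak, in the classes the authors gave them (8587 shared, 3055 dex-enriched and 267 vehicle-enriched peaks). Of all genes tested, 25.9% had a peak of any class within 5 kb, 22.7% a shared peak, 2.71% a dex-enriched peak and 1.02% a vehicle-enriched peak. Having 3 of 10 genes with any peak is near that background. The 2 of 10 with a dex-enriched peak is a description of these genes, and no test was made. The sources used here do not say what defines a class, and every peak has a score of 0 in the deposited lists, so peak heights cannot be compared.

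NCOA3 (hg19 chr20:46130601-46285621, plus strand) carried its shared peak at chr20:46129999-46130333, centred 435 bp upstream of the TSS, and its dex-enriched peak at chr20:46131360-46131694, centred 926 bp downstream, inside the transcribed region. A second dex-enriched peak was centred 37172 bp upstream. The CREBBP peak (gene at chr16:3775056-3930121, minus strand) lay at chr16:3931104-3931460, centred 1161 bp upstream of the TSS. The SMARCA4 peak (gene at chr19:11071598-11172958, plus strand) lay at chr19:11075415-11075749, centred 3984 bp downstream of the TSS in the transcribed region.

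Farther out, a shared peak lay 44235 bp upstream of NCOA1 (chr2:24807346-24993570, plus strand), and a dex-enriched peak 42306 bp upstream of NCOA2. NCOA2 held 2 more dex-enriched peaks inside its transcribed region, 158381 and 182110 bp from the TSS. The upstream peak lay nearer to the TSS of LOC101926892 (25436 bp) and the one at 182110 bp nearer to that of PRDM14 (149955 bp). CARM1 (chr19:10982253-11033448, plus strand) had 3 shared peaks within 50 kb, of which the ones 34494 and 20713 bp upstream lay nearer to the TSS of TMED1 and C19orf38, and the one 25578 bp downstream lay inside CARM1. No peak of any class lay within 50 kb of the TSS of EP300 (chr22:41488614-41576081), MED1 (chr17:37560538-37607527), EHMT1 (chr9:140513444-140730578) or EHMT2 (chr6:31847536-31864766), and no vehicle-enriched peak within 50 kb of any of the 10. Over that distance 6 of 10 genes had a peak, against 54.2% of all genes tested.

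**Figure D1:**
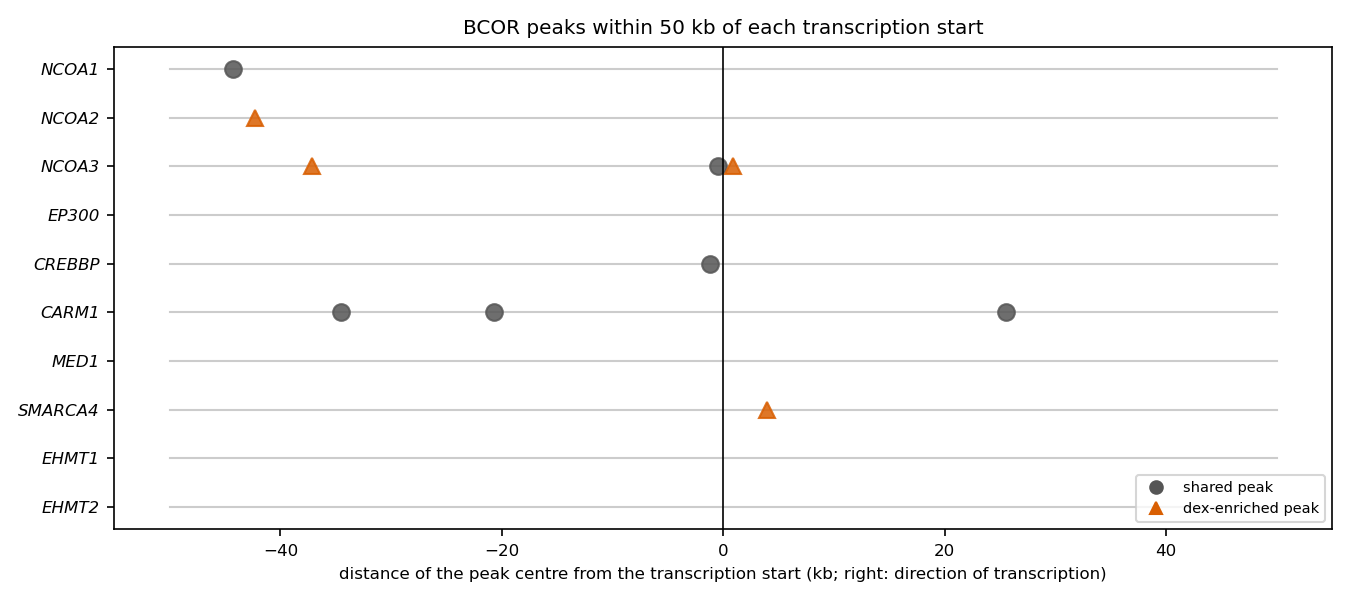
BCOR peaks around the 10 genes. The x axis is the distance of the peak centre from the TSS in kb, with the direction of transcription to the right, circles are shared and triangles dex-enriched peaks. NCOA3, CREBBP and SMARCA4 have a peak within 5 kb, and EP300, MED1, EHMT1 and EHMT2 have none within 50 kb.

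The DNA just upstream of an annotated start of 3 of these genes is shown. NCOA3 and CREBBP have a BCOR peak nearby. EHMT1, with a start at least as rich in CpG, has none within 50 kb. Each line is the 250 bases before an annotated start, 5′ to 3′ on the gene's strand, from RefSeq on GRCh38.p14, with every CG dinucleotide in capitals. They cover chr20:47501637-47501886 (plus strand), chr16:3880714-3880963 (minus strand, the farther upstream of 2 annotated starts) and chr9:137618755-137619004 (plus strand). These positions are on another build than the peaks and were not aligned with them.
NCOA3: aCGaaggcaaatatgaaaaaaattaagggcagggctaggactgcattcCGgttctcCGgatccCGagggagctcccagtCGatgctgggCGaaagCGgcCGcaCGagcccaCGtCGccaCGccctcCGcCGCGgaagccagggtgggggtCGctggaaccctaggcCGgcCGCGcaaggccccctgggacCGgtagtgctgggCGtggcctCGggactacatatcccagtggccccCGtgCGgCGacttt
CREBBP: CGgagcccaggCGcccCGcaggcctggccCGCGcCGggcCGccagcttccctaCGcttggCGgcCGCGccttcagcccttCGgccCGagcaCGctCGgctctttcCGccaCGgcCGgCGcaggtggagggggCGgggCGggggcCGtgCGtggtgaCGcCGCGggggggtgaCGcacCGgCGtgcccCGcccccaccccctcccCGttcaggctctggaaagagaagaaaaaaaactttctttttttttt
EHMT1: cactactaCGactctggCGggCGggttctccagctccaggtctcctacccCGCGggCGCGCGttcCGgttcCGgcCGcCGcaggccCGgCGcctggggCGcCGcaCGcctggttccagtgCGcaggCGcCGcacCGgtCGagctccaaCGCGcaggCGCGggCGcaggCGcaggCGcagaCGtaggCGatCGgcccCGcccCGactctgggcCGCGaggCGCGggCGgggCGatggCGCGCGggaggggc

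The 3 stretches held 25, 31 and 43 CG dinucleotides. In windows of 300 bases (250 before to 50 after the start), 9 of the 10 genes matched the RefSeq table, with 14 windows, and NCOA2 did not. The 14 windows held from 0 to 56 CG dinucleotides, and 12 of them exceeded 14, the median over all 35116 windows in the table. The 2 CREBBP starts had 36 (the one printed) and 50, beside 30 for NCOA3 and 51 for EHMT1. Which CREBBP start is the TSS used for the peaks was not determined across builds. The receptor-binding motif AGAACA or its reverse complement TGTTCT occurred in 2 of the 14 windows, in NCOA1 and CREBBP, against 14.8% of all windows. The palindrome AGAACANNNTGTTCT was in none of the 14 and in 0.00285% of all windows. These are letter matches in short windows and describe no binding.

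A gene was called changed at a false discovery rate of 0.05, by the quasi-likelihood test of edgeR with Benjamini-Hochberg adjustment over all 16432 genes. Dex raised NCOA1 and NCOA3 in siNON cells, 2 of 10 genes where 10.7% of all genes were called higher, and lowered none of the 10 where 8.64% were called lower (19.4% in either direction). In siBCOR cells it raised NCOA1 and lowered CARM1, where 10.5% of all genes were higher and 12.5% lower (23.1% in all). BCOR depletion in vehicle raised NCOA1 and NCOA3 and lowered CARM1, where 8.87% were higher and 8.23% lower (17.1% in all). In dex, depletion raised NCOA1, NCOA2 and NCOA3 and lowered CREBBP, CARM1, SMARCA4, EHMT1 and EHMT2, which makes 8 of 10 genes where 39.5% of all genes were called, 20.7% higher and 18.8% lower. Groups did not overlap for the 2 genes the hormone raised in siNON cells, as for 11.1% of all genes higher and 8.75% lower (19.9% in all), nor for the 2 called in siBCOR cells, where these shares were 15.3%, 15.4% and 30.7%. They did not overlap for the 3 genes called in the vehicle depletion, as for 10.1% of all genes higher and 7.92% lower (18% in all), nor for 6 of the 8 called in dex, as for 16.6% higher and 17.6% lower (34.2% in all). Both depletion comparisons have their own libraries, while each shares a group with each hormone comparison.

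**Figure D2:**
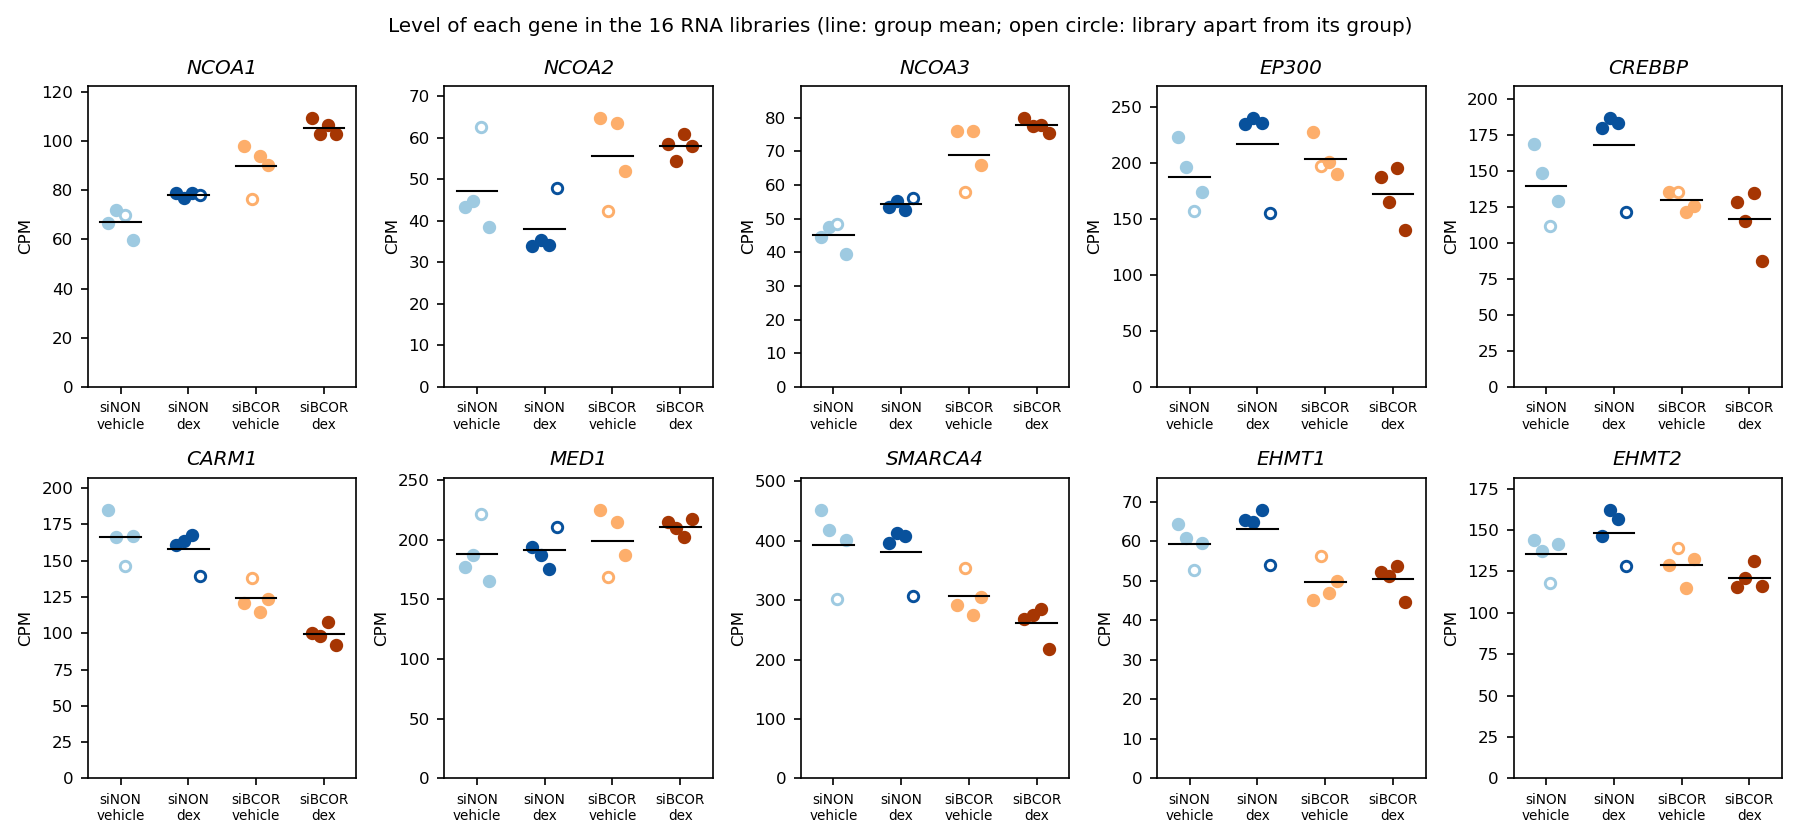
RNA level of each of the 10 genes in the 16 libraries. The y axis is CPM from 0, each circle is a library, the line is the mean of the 4 libraries of a group, and open circles mark the 3 libraries apart from their groups. NCOA1 and NCOA3 lie higher in the siBCOR groups and CARM1 lower, without overlap at either treatment.

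NCOA1, a coactivator that binds the receptor directly (also known as SRC-1), rose both with hormone and with BCOR depletion. NCOA1 in siNON cells was at 66.6, 72.1, 69.9 and 60.0 CPM with vehicle and 78.9, 76.8, 78.9 and 78.3 CPM with dex (replicates 1 to 4, the order used for all genes). NCOA1 in siBCOR cells was at 98.0, 76.3, 94.0 and 90.4 CPM with vehicle and 109, 103, 107 and 103 CPM with dex. The group means ascended in that order, and none of the 4 comparisons showed overlap between the compared groups. Depletion raised NCOA1 1.34-fold in vehicle (log2 fold change 0.42 ± 0.073 SE, edgeR adjusted p = 0.00108) and 1.35-fold in dex (0.43 ± 0.073, edgeR adjusted p = 0.000429). The hormone raised it 1.16-fold in siNON cells (0.22 ± 0.073, edgeR adjusted p = 0.0434) and 1.18-fold in siBCOR cells (0.23 ± 0.073, edgeR adjusted p = 0.0275). The hormone call in siNON cells was close to the threshold and was lost under 15 of 25 alternative settings, without change of direction (adjusted p up to 0.135, without siNON vehicle replicate 4). Among single libraries, it held only without siBCOR vehicle replicates 1, 2 or 3 or siNON vehicle replicate 2. The call in siBCOR cells was lost without a filter on low counts and without siBCOR vehicle replicate 2 (0.16, adjusted p = 0.0860) or 4, or siBCOR dex replicate 1 or 3. The depletion calls held under all 25. In siNON dex replicate 4 and siNON vehicle replicate 3, NCOA1 differed from the other replicates by 0.0012 and 0.082 (log2). In the fit scaled anew without the 3 libraries apart, the depletion differences were 0.45 in vehicle and 0.39 in dex.

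NCOA3 (SRC-3), from the same family, also rose with depletion and had the BCOR peaks nearest to its start among the 10 genes. NCOA3 in siNON cells was at 44.7, 47.5, 48.5 and 39.5 CPM with vehicle and 53.3, 55.2, 52.7 and 56.2 CPM with dex. NCOA3 in siBCOR cells was at 76.1, 58.1, 76.2 and 65.8 CPM with vehicle and 79.9, 77.6, 77.8 and 75.5 CPM with dex. All siBCOR libraries were above all siNON libraries. Depletion raised NCOA3 1.53-fold in vehicle (0.62 ± 0.083, edgeR adjusted p = 0.000119) and 1.43-fold in dex (0.52 ± 0.083, edgeR adjusted p = 0.000282), and both calls held under all 25 alternatives. The hormone raised it 1.21-fold in siNON cells (0.27 ± 0.083, edgeR adjusted p = 0.0289), a call lost without a filter on low counts and without siNON vehicle replicate 1 or 4 or siNON dex replicate 1 or 2 (adjusted p between 0.0525 and 0.0972). In siBCOR cells the hormone difference was 0.17 with an interval of -0.0038 to 0.34 (95%, log2) and was not called (edgeR adjusted p = 0.147). The difference between these hormone effects was -0.10, with an interval of -0.35 to 0.15.

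NCOA2 (also known as GRIP1 or TIF2) had the largest SE of the 10 genes, 0.153 (log2), for the hormone in siNON cells. NCOA2 in siNON cells was at 43.4, 44.8, 62.5 and 38.4 CPM with vehicle and 34.0, 35.4, 34.2 and 47.9 CPM with dex. NCOA2 in siBCOR cells was at 64.7, 42.4, 63.6 and 52.1 CPM with vehicle and 58.5, 54.3, 61.0 and 58.0 CPM with dex. The libraries at 62.5, 47.9 and 42.4 CPM were the 3 that stood apart from their groups. Depletion raised NCOA2 1.53-fold in dex (0.61 ± 0.153, edgeR adjusted p = 0.00603) without overlap, and the difference in vehicle (0.24 ± 0.152) was not called (edgeR adjusted p = 0.314). Without the 3 libraries these differences were 0.71 and 0.45, and both were called (edgeR adjusted p = 7.39e-08 and 0.000115). The hormone difference in siNON cells was -0.32 ± 0.153 (edgeR adjusted p = 0.170), and without siNON dex replicate 4 it was -0.45 and called lower (edgeR adjusted p = 0.0342). It was -0.29 and also called without the 3 libraries (edgeR adjusted p = 0.00777).

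**Figure D3:**
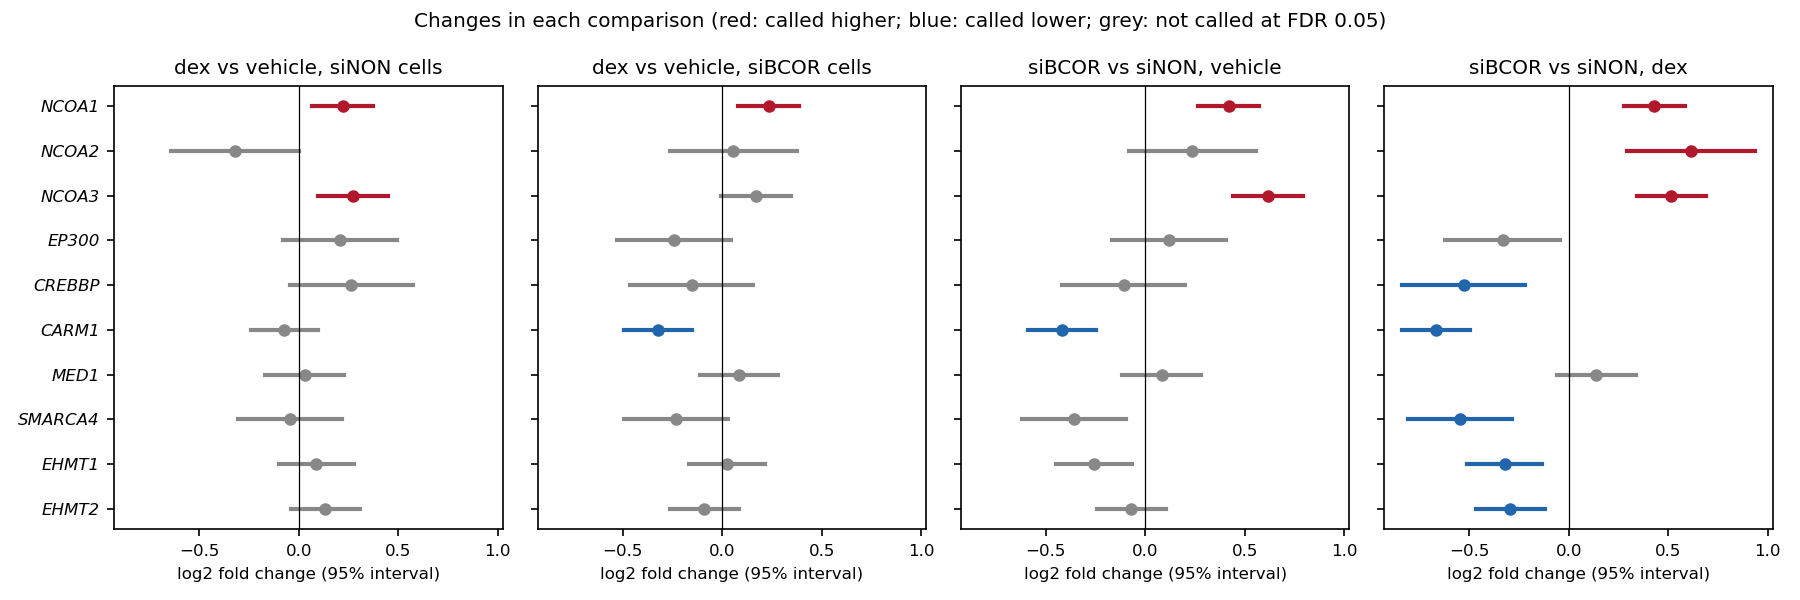
Log2 fold change of each gene in the 4 comparisons, with 95% intervals on the x axis and the genes on the y axis. Red marks genes called higher, blue genes called lower and grey genes not called. In the comparison of siBCOR with siNON in dex, 3 genes are called higher and 5 lower, and the intervals of EP300 and MED1 are grey.

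EP300 and CREBBP, paralogous acetyltransferases of histones and of many transcription factors, were low in the same siNON libraries. EP300 in siNON cells was at 223, 196, 157 and 174 CPM with vehicle and 235, 239.6, 236 and 155 CPM with dex. EP300 in siBCOR cells was at 227, 197, 201 and 189 CPM with vehicle and 187, 165, 195 and 140.2 CPM with dex. In siNON dex, 3 libraries lay close together and replicate 4 lay far below them, among the siBCOR dex libraries. The EP300 difference between siBCOR and siNON in dex was -0.33 ± 0.136 and was not called (edgeR adjusted p = 0.0611). Without siNON dex replicate 4 it was -0.46 and was called (edgeR adjusted p = 0.00333). It was called under 9 of 25 alternatives, among them DESeq2 (-0.36, adjusted p = 0.0441) and the fits without siNON vehicle replicate 3 (-0.36, adjusted p = 0.0313) or siBCOR dex replicate 3 (-0.40, adjusted p = 0.0482).

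CREBBP in siNON cells was at 169, 149, 112 and 129 CPM with vehicle and 179.9, 187, 183 and 121 CPM with dex. CREBBP in siBCOR cells was at 135, 135, 122 and 126 CPM with vehicle and 128, 115, 134 and 87.7 CPM with dex. The siBCOR dex libraries overlapped with siNON dex only through replicate 4 of the latter. Depletion lowered CREBBP 1.44-fold in dex (-0.53 ± 0.147, edgeR adjusted p = 0.0112), a call that held under all 25 alternatives, with -0.69 when the 3 libraries apart were left out. In vehicle the difference was -0.11 with an interval of -0.42 to 0.20 (edgeR adjusted p = 0.668), and without those 3 libraries it was -0.28 and called (edgeR adjusted p = 0.0398).

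The hormone differences of both acetyltransferases depended on siNON dex replicate 4. With it, EP300 and CREBBP differed by 0.21 and 0.26 between dex and vehicle in siNON cells and were not called (edgeR adjusted p = 0.333 and 0.247). Without it, the differences were 0.34 and 0.39 and both were called higher (edgeR adjusted p = 0.0374 and 0.0345). With all 3 libraries apart left out, the difference of EP300 was 0.25 and not called, and that of CREBBP was 0.29 and called (edgeR adjusted p = 0.0544 and 0.0452). In siBCOR cells they differed by -0.24 and -0.15 and were not called (edgeR adjusted p = 0.207 and 0.476). Without the 3 libraries apart, EP300 was called lower there (-0.24, edgeR adjusted p = 0.0414). The ratio of EP300 to CREBBP per kb lay between 1.49 and 1.52 in the siNON dex libraries, and replicate 4, with 1.49, was low in both genes in like proportion. The ratio was 1.57 ± 0.0454 in siNON vehicle, 1.73 ± 0.0877 in siBCOR dex and 1.83 ± 0.125 in siBCOR vehicle (mean ± SD, n = 4). In the siBCOR libraries it was never below 1.67, and in the siNON libraries never above 1.63. The ratios are given as a description and were not tested.

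CARM1, which methylates arginines of histone H3 and of EP300 and CREBBP and is recruited by the NCOA proteins, fell with depletion at both treatments. CARM1 in siNON cells was at 185, 166, 146 and 167 CPM with vehicle and 161, 164, 168 and 139 CPM with dex. CARM1 in siBCOR cells was at 121, 138, 115 and 123 CPM with vehicle and 100.3, 97.8, 107 and 91.9 CPM with dex. Every siBCOR library was below every siNON library. Depletion lowered CARM1 1.34-fold in vehicle (-0.42 ± 0.081, edgeR adjusted p = 0.00208) and 1.59-fold in dex (-0.67 ± 0.081, edgeR adjusted p = 2.13e-05). The hormone lowered it 1.25-fold in siBCOR cells (-0.32 ± 0.081, edgeR adjusted p = 0.00781). In siNON cells its hormone difference was -0.073 with an interval of -0.24 to 0.096 and was not called (edgeR adjusted p = 0.591). The 3 calls held under all 25 alternatives. In siNON vehicle replicate 3 and siNON dex replicate 4 CARM1 differed by -0.24 and -0.23 from the other replicates, in the direction of depletion. Leaving out the 3 libraries apart gave -0.59 in vehicle and -0.76 in dex. The CARM1 transcript shares 5 bp of its span with YIPF2 on the other strand, and the counting names no strand. YIPF2 had 43.3% as many reads as CARM1, over its whole transcript, and how many fell in the shared bases is not given by the counts.

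MED1, the Mediator subunit that carries receptor-binding motifs, was called in none of the 4 comparisons. MED1 in siNON cells was at 177, 187, 222 and 166 CPM with vehicle and 194, 187, 175 and 210.2 CPM with dex. MED1 in siBCOR cells was at 225, 169, 215 and 187 CPM with vehicle and 215, 209.8, 202 and 217 CPM with dex. The groups overlapped throughout. The intervals of the differences reached from -0.17 to 0.23 and from -0.11 to 0.28 for the hormone in siNON and siBCOR cells, and from -0.12 to 0.28 and from -0.059 to 0.34 for depletion in vehicle and in dex (95%, log2). Without the 3 libraries apart, both depletion differences were called higher, at 0.18 and 0.15 (edgeR adjusted p = 0.0315 and 0.0455).

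SMARCA4 (BRG1), an ATPase of SWI/SNF chromatin remodelling complexes, fell with depletion in the presence of hormone. SMARCA4 in siNON cells was at 452, 419, 302 and 402 CPM with vehicle and 396, 414, 408 and 308 CPM with dex. SMARCA4 in siBCOR cells was at 292, 355, 275 and 306 CPM with vehicle and 268, 275, 285 and 217 CPM with dex. The values of 302 and 308 CPM came from the 2 siNON libraries apart, and 355 CPM came from siBCOR vehicle replicate 2. Depletion lowered SMARCA4 1.46-fold in dex without overlap (-0.54 ± 0.124, edgeR adjusted p = 0.00351). In vehicle the difference was -0.36 ± 0.124 and missed the threshold (edgeR adjusted p = 0.0545), while it was called under 9 of 25 alternatives, among them DESeq2 (-0.39, adjusted p = 0.0348) and the fits without siNON vehicle replicate 3 (-0.52, adjusted p = 0.00486), siNON dex replicate 4 (adjusted p = 0.0296), siBCOR vehicle replicate 2 (-0.44, adjusted p = 0.0233) or siBCOR dex replicate 4 (adjusted p = 0.0457). Without the 3 libraries apart it was -0.60 (edgeR adjusted p = 4.7e-06). The hormone differences of -0.046 and -0.23 in siNON and siBCOR cells were not called (edgeR adjusted p = 0.842 and 0.188).

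The methyltransferases EHMT1 and EHMT2, which act as a pair, also fell with depletion in dex. EHMT1 in siNON cells was at 64.4, 60.8, 52.7 and 59.6 CPM with vehicle and 65.3, 64.8, 68.0 and 54.1 CPM with dex. EHMT1 in siBCOR cells was at 45.2, 56.4, 47.0 and 49.9 CPM with vehicle and 52.1, 51.1, 53.8 and 44.7 CPM with dex. In dex the groups were separated by a narrow gap between 54.1 CPM in siNON replicate 4 and 53.8 CPM in siBCOR replicate 3. Depletion lowered EHMT1 1.25-fold in dex (-0.32 ± 0.090, edgeR adjusted p = 0.0113), and its difference in vehicle, -0.26 ± 0.090, missed the threshold (edgeR adjusted p = 0.0564). It was called in vehicle under 6 of 25 alternatives, among them those without siNON vehicle replicate 3 (adjusted p = 0.0162), siNON dex replicate 4 (adjusted p = 0.0314) or siBCOR vehicle replicate 2 (adjusted p = 0.0172), and was -0.44 (edgeR adjusted p = 6.43e-05) without the 3 libraries apart. EHMT1 also overlaps LOC651337, whose reads amounted to 0.169% of its own.

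EHMT2 in siNON cells was at 144, 137, 118 and 142 CPM with vehicle and 146, 162, 156 and 128 CPM with dex. EHMT2 in siBCOR cells was at 129, 139, 115 and 132 CPM with vehicle and 116, 121, 131 and 116 CPM with dex. In dex only siNON replicate 4 overlapped with the siBCOR libraries. Depletion lowered EHMT2 1.23-fold in dex (-0.29 ± 0.083, edgeR adjusted p = 0.0118), and in vehicle the difference was -0.071 with an interval of -0.24 to 0.10. Without the 3 libraries apart, it was -0.39 in dex and -0.23 in vehicle, where it was then called (edgeR adjusted p = 0.00882). The hormone changed neither gene past the threshold in siNON cells (0.087 for EHMT1 and 0.13 for EHMT2) or in siBCOR cells (0.025 and -0.089). The EHMT1 to EHMT2 ratio per kb was 0.350 ± 0.00990 and 0.339 ± 0.0160 in siNON vehicle and dex, and 0.307 ± 0.0218 and 0.332 ± 0.0222 in siBCOR vehicle and dex.

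**Figure D4:**
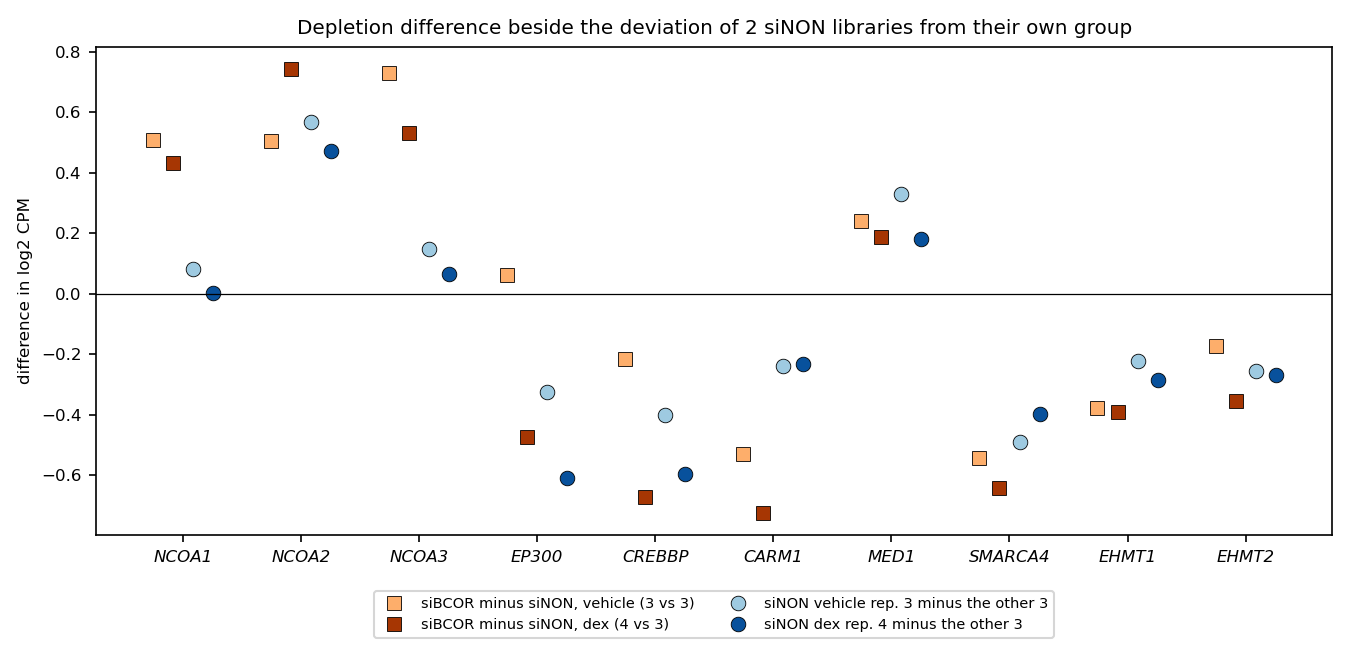
Difference between siBCOR and siNON without the 3 libraries apart (squares) beside the deviation of the 2 siNON libraries from the other 3 replicates of their own group (circles). Both are on the scaling of all 16 libraries. The y axis is the difference in log2 CPM and the genes are on the x axis. For NCOA2, CREBBP, CARM1, MED1, SMARCA4, EHMT1 and EHMT2 squares and circles lie on the same side of 0. They do so for NCOA1 and NCOA3 too, where the circles lie between 0.0012 and 0.15 while the squares lie between 0.43 and 0.73. For EP300 the square for vehicle lies at 0.061 and the other symbols lie below 0. A square and a circle of the same treatment subtract the same siNON libraries, so part of their agreement is built in.

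The deviation of siNON dex replicate 4 and siNON vehicle replicate 3 thus had the sign of the depletion difference in dex for all 10 genes, called or not, NCOA1 in siNON dex replicate 4 being at 0.0012. The share of all genes with this agreement was not counted, and the correlations given above run over all genes. In siBCOR vehicle replicate 2 the sign was the opposite for each gene but EP300 (-0.056), with -0.50 for NCOA2 and 0.29 for SMARCA4. With the 3 libraries left out, depletion in dex called all 10 genes, 4 higher and 6 lower, where 28.1% and 29.3% of all genes were called. As these libraries were picked for standing apart, the calls gained are a description only. The differences in dex were larger in size without them for NCOA2, CREBBP, CARM1, SMARCA4, EHMT1 and EHMT2, and slightly smaller for NCOA1 (0.39) and NCOA3 (0.49). In vehicle, depletion without these libraries called 4 higher (NCOA1, NCOA2, NCOA3 and MED1) and 5 lower (CREBBP, CARM1, SMARCA4, EHMT1 and EHMT2). All-gene shares there were 17.6% and 21.1%. The hormone then called NCOA1 and NCOA3 higher, as well as CREBBP, and NCOA2 lower in siNON cells, where 12.6% and 14.0% of all genes were called, and NCOA1 higher and EP300 and CARM1 lower in siBCOR cells, where 18.0% and 14.7% were. Without siNON dex replicate 4 alone, all-gene shares higher and lower were 12.5% and 11.9% for the hormone in siNON cells, 13.3% and 14.1% for it in siBCOR cells, 10.1% and 9.29% for depletion in vehicle, and 27.0% and 22.3% for depletion in dex. The share called in dex moved the other way, from 39.5% to 27.0%, 26.5% and 25.4%, without siNON dex replicate 1, 2 or 3, and 3 of the 10 genes were called higher and 5 lower in each case. In bulk RNA, a change in the share of cells and a change in RNA per cell cannot be told apart.

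Whether BCOR depletion altered the hormone's effect was asked with the interaction, the hormone effect in siBCOR cells minus that in siNON cells. None of the 10 genes was called by edgeR, where 0.0974% of all genes were called (16 of 16432), 0.0183% higher and 0.0791% lower. DESeq2 called 0 of the 10, where it called 0.5% of its 14207 genes, 0.232% higher and 0.267% lower. At an unadjusted p under 0.05 edgeR gave 2, EP300 (-0.45, interval -0.86 to -0.046) and CARM1 (-0.25, interval -0.49 to -0.0079). Of all genes, 19.3% had such a p in edgeR, and 2 of 10 is near that background. For NCOA1 the difference was 0.013 with an interval of -0.20 to 0.23, and for CREBBP -0.42 with an interval of -0.86 to 0.021. Leaving out siNON dex replicate 4 changed this outcome for all genes, with 8.7% called higher and 6.62% lower. EP300 (-0.58, edgeR adjusted p = 0.0312) and CREBBP (-0.54, edgeR adjusted p = 0.0476) were then called. As this library stood apart from its group, the calls gained are a description only. Leaving out any other single library called 0 of the 10 and at most 0.0423% of all genes. With the 3 libraries left out, only EP300 was called among the 10 (-0.50, edgeR adjusted p = 0.0196), where 8.64% of all genes were called higher and 3.85% lower.

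The genes that work with these 10 were taken from 4 lists, and from each list the called genes with the smallest adjusted p, at most 3 per comparison, are named with their log2 differences. The counts stand beside shares of all genes called higher and lower. These were 10.7% and 8.64% for the hormone in siNON cells, and 10.5% and 12.5% in siBCOR cells. For depletion they were 8.87% and 8.23% in vehicle, and 20.7% and 18.8% in dex. Among 25 other nuclear receptor coactivators, dex called 3 higher and 3 lower in siNON cells and 2 higher and 4 lower in siBCOR cells. HELZ2, a helicase that coactivates nuclear receptors, rose 5.37-fold in siNON cells (20.3 ± 3.01 to 109 ± 9.68 CPM, edgeR adjusted p = 1.61e-09) and 5.59-fold in siBCOR cells (edgeR adjusted p = 1.72e-09). TRIM24, a bromodomain coregulator, rose by 0.75 and 0.74. CITED2, which binds EP300 and CREBBP, fell by 0.57 in siNON cells, and PPARGC1B, a coactivator of mitochondrial genes, fell by 0.38 in siBCOR cells. Depletion called 1 higher and 2 lower in vehicle and 5 higher and 6 lower in dex. PRMT1, an arginine methyltransferase like CARM1, fell by 0.28 and 0.38 (edgeR adjusted p = 0.0107 and 0.000823), and the acetyltransferase KAT2A by 0.21 and 0.32 (edgeR adjusted p = 0.0181 and 0.000619). PPARGC1A rose by 0.35 in vehicle, and FLII fell by 0.36 in dex. Depletion without the 3 libraries apart called 4 higher and 8 lower in vehicle, and 6 and 12 in dex, where the shares of all genes were also larger (17.6% and 21.1%, and 28.1% and 29.3%). The median of this list for depletion in dex was -0.10, beside 0.025 over all genes and -0.31 over the 10 genes.

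Of 31 other Mediator genes, dex called 4 higher and 0 lower in siNON cells and 4 higher and 2 lower in siBCOR cells. MED9 rose by 0.56 and 0.45, MED30 by 0.58 and 0.57, and MED18 by 0.38 in siNON cells, while the scaffold subunit MED14 fell by 0.37 in siBCOR cells. Depletion called 8 higher and 0 lower in vehicle, with a median of 0.11 beside 0.025 over all genes, and 9 higher and 4 lower in dex. In vehicle 8.87% of all genes were called higher and 8.23% lower. In dex 41.9% of the Mediator list was called, near the 39.5% of all genes. The count higher in vehicle fell to 3 without siBCOR vehicle replicate 3 or siNON vehicle replicate 1, and to 4 or 5 without siBCOR vehicle replicate 1 or siNON vehicle replicate 3 or 4. In these fits between 5.38% and 6.41% of all genes were called higher. With the 3 libraries apart left out, 11 were called higher and 5 lower in vehicle, and 11 and 7 in dex (all genes 17.6% and 21.1%, and 28.1% and 29.3%). MED14 (0.35, edgeR adjusted p = 0.00259), the kinase CDK8 (0.39, edgeR adjusted p = 0.00406) and MED29 (0.23) rose in vehicle. In dex the paralogous kinase CDK19 (0.62, edgeR adjusted p = 0.0007) and MED17 (0.43) rose, and MED12 of the same kinase module fell by 0.65 (edgeR adjusted p = 0.000851).

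Of 24 tested partners of SMARCA4 in SWI/SNF complexes, out of 25 listed, dex called 2 higher and 0 lower in siNON cells (DPF1 0.36 and BCL7B 0.27) and 1 higher and 6 lower in siBCOR cells. That count of 6 fell to 3 without any of siBCOR vehicle replicates 1 and 4, siBCOR dex replicates 1, 2 and 4 and siNON dex replicates 1 and 2, and to 4 without siBCOR vehicle replicate 2 or siBCOR dex replicate 3. In these fits between 9.55% and 11.9% of all genes were called lower. In siBCOR cells BCL7A fell by 0.30, the core subunit SMARCC1 by 0.31 and ARID1B, a DNA-binding subunit, by 0.40. Depletion called 1 higher and 2 lower in vehicle, where BCL7C fell by 0.72 (edgeR adjusted p = 0.000174) and ARID1B by 0.32, and SMARCD2 rose by 0.29. In dex it called 1 higher and 9 lower, with a median of -0.15. That was 41.7% of the tested genes on the list, near the 39.5% of all genes (20.7% higher and 18.8% lower). Leaving out the 3 libraries apart gave 3 higher and 9 lower in vehicle, and 4 and 13 in dex (all genes 17.6% and 21.1%, and 28.1% and 29.3%). With all libraries, in dex, the named genes were as follows. ARID1B fell by 0.62 (edgeR adjusted p = 0.000194), BCL7C by 0.63 (edgeR adjusted p = 0.000264) and SMARCC1 by 0.37 (edgeR adjusted p = 0.000473).

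Of 24 genes of histone H3 lysine 9 methylation other than EHMT1 and EHMT2, dex called 1 higher and 1 lower in siNON cells, the demethylase KDM4A (0.24) and CBX3 (-0.43), which binds the mark. In siBCOR cells it called 1 higher and 3 lower, among them the demethylase KDM7A (0.61), AURKB (-0.28) and KDM1A (-0.28). Depletion called 1 higher and 2 lower in vehicle, KDM1A (0.23), UHRF1 (-0.50, edgeR adjusted p = 0.00111) and TRIM28 (-0.28), and 4 higher and 5 lower in dex. UHRF1, which reads this mark and hemimethylated DNA, fell by 0.59 in dex (edgeR adjusted p = 0.000158). TRIM28, which recruits another methyltransferase of this lysine, fell by 0.48 (edgeR adjusted p = 0.000562), and KDM7A rose by 0.80 (edgeR adjusted p = 0.00368). Of these 24 genes, 5 were called higher and 4 lower in vehicle, and 9 and 11 in dex, when the 3 libraries apart were left out (all genes 17.6% and 21.1%, and 28.1% and 29.3%). In the interaction edgeR called 0 genes of the 4 lists, with 4 coactivators, 5 Mediator, 6 SWI/SNF and 6 lysine 9 genes at an unadjusted p under 0.05, beside 19.3% of all genes. Without siNON dex replicate 4 the interaction called 3 coactivators higher and 1 lower, 0 and 3 Mediator genes, 2 and 4 SWI/SNF genes, and 4 and 3 lysine 9 genes, where 8.7% of all genes were called higher and 6.62% lower. For the hormone in siNON cells, the counts higher and lower without the 3 libraries apart were 5 and 4 for the coactivators, 7 and 0 for Mediator, 3 and 0 for SWI/SNF and 2 and 2 for lysine 9 genes (all genes 12.6% and 14.0%). In siBCOR cells they were 5 and 6, 9 and 2, 2 and 8, and 2 and 6, in that order (all genes 18.0% and 14.7%). Leaving out single libraries moved the counts higher for depletion in dex over 3 to 6, 5 to 11, 1 to 4 and 4 to 8, and the counts lower over 4 to 9, 1 to 5, 7 to 12 and 5 to 6, in the same order of lists. The shares of all genes moved over 11.6% to 27% higher and 13.7% to 22.3% lower.

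**Figure D5:**
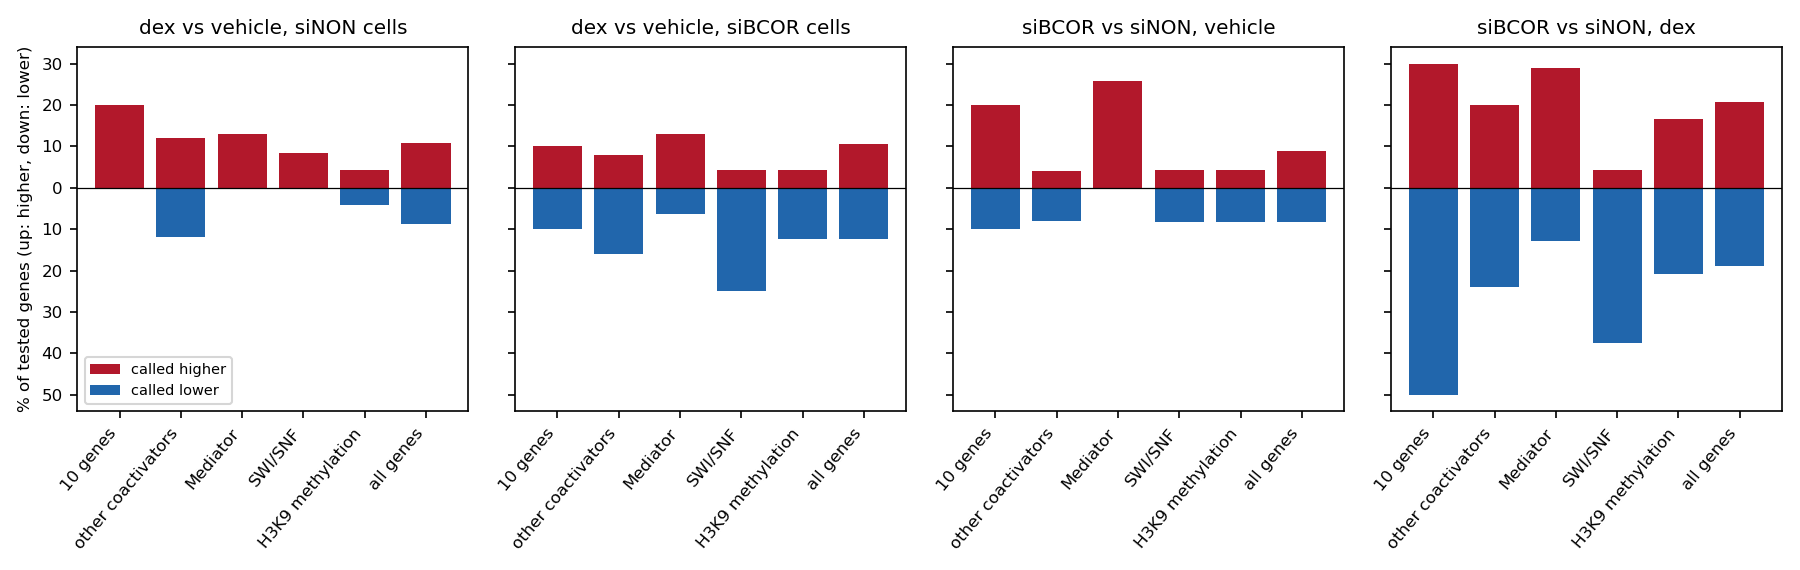
Share of tested genes called higher (bars above 0) or lower (bars below 0) in each of the 4 comparisons, in percent, for the 10 genes, the 4 lists of related genes and all genes. For depletion in dex, 5 of the 10 genes and 9 of 24 SWI/SNF genes were called lower, against 18.8% of all genes.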

How the data were processed

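RNA-seq and BCOR ChIP-seq of HEK293-GR cells were used as deposited. The authors' table holds raw read counts over exons of RefSeq transcripts (hg19), made with HOMER without adjustment and with no strand option, per the file headers. Tools listed in the submitters' processing notes are HOMER 4.10.3, Bowtie 0.12.9, TopHat2, bedtools, Trimmomatic and FastQC. The deposited peak lists give a score of 0 for each peak. The series text names 3 RNA replicates, while 4 are labelled and were used.

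For each symbol the transcript with the most reads was kept, and 134 transcripts without a name, with 0.0664% of counts, were left out. Counts were filtered with filterByExpr, scaled by TMM and fitted with 4 group means in edgeR 4.0.16 (limma 3.58.1, R 4.3.3), with two-sided quasi-likelihood tests and Benjamini-Hochberg adjustment. The code was tested on simulated data. Counts over chosen transcripts ran from 18580294 to 28054808 per library. Log2 differences between single libraries used a prior count of 2. Alternatives were other scalings, DESeq2 1.42.0, no filter, other transcripts, a replicate block, left-out libraries and other peak windows. Leaving out 3 libraries together was chosen after seeing the data. The alternative without both siNON libraries apart also rests on their distance from their groups, so calls gained with it are descriptions.

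The genes and lists were chosen with earlier results of these data known. Named are all 10 genes, BCOR and NR3C1 as checks, and from each list up to 3 called genes with the smallest adjusted p per comparison. The labels give same-numbered libraries a common number and do not say whether they were handled together, and the main fit did not pair them.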

Additional observations from a re-analysis of the deposited data

Results flagged for a closer look

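In siNON dex, 3 of the 10 genes had a library far from the others, by Dixon's test within the group of 4. All 3 were in replicate 4. EP300 was at 155 CPM there and between 235 and 239.6 CPM in the other 3 libraries. CREBBP was at 121 CPM there and between 179.9 and 187 CPM in the others. NCOA2 was at 47.9 CPM there and between 34.0 and 35.4 CPM in the others. These were the only 3 among 40 groups examined (10 genes in 4 groups), and chance alone marks about 1 group in 20. The same library was farthest from its group over all genes, as given above.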

How the results depend on the processing

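The calls of NCOA1, NCOA3 and CARM1 with depletion at both treatments, and of all 8 genes called in dex, held under all 25 alternatives. The number of genes called lower by depletion in vehicle was 1, and became 2 with RLE scaling, 3 with DESeq2 and 3 without both siNON libraries apart, while the share of all genes called lower went from 8.23% to 9.37%, 9.7% and 15.1%. Without all 3 libraries apart it was 5, with 4 higher, where 21.1% and 17.6% of all genes were called. For the hormone in siNON cells, the 2 genes called higher (all genes 10.7%) became 0 without a filter on low counts (5.63%). They became 1 when only the 2 groups were fitted (8.3%). The count lower became 1 without the 3 libraries (all genes 8.64% and 14.0%). In siBCOR cells the gene called higher was lost without the filter (0, all genes 10.5% and 6.76%). The count lower there went from 1 to 3 without both siNON libraries and to 2 without the 3 (all genes 12.5%, 15.4% and 14.7%). The interaction then called 1 gene lower in either case (all genes 3.64% and 3.85%). Leaving out single libraries gave 0 to 3 genes higher and 0 to 1 lower for the hormone in siNON cells, 0 to 1 higher in siBCOR cells, 1 to 3 lower for depletion in vehicle and 0 to 2 lower for the interaction. In these fits the shares of all genes ran, in the same order, over 8.29% to 12.5%, 6.88% to 11.9%, 7.94% to 14.5%, 5.56% to 12.2% and 0.0121% to 6.62%. The cause was not tested.

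Signs changed only for differences that were not called. Upper-quartile scaling gave -0.022 for EHMT1 with hormone in siBCOR cells and -0.022 for the NCOA1 interaction. EP300 with depletion in vehicle became -0.010 without both siNON libraries and -0.0021 without the 3, which also gave -0.040 for NCOA2 with hormone in siBCOR cells and -0.056, -0.036 and 0.013 for the interactions of NCOA1, MED1 and EHMT1. Leaving out single libraries gave -0.018 to 0.092 for EHMT1 and -0.054 to 0.14 for NCOA2 with hormone in siBCOR cells, -0.17 to 0.044 for SMARCA4 and -0.028 to 0.10 for MED1 in siNON cells, -0.010 to 0.21 for EP300 with depletion in vehicle, and -0.056 to 0.064, -0.014 to 0.12 and -0.13 to 0.014 for the interactions of NCOA1, MED1 and EHMT1.

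A replicate block left 1 gene higher with hormone in siNON cells (NCOA1 lost, edgeR adjusted p = 0.0512, all genes 10.2%). It gave 2 lower with depletion in vehicle (SMARCA4 added, edgeR adjusted p = 0.0446, all genes 8.0%). The block also called EP300 lower with depletion in dex (-0.33, edgeR adjusted p = 0.0249, all genes 18.8%), and changed no other call of the 10 genes. Residuals of same-numbered libraries correlated between -0.53 and 0.50, and between 1 and 3 of 8 libraries correlated best with their own number. With a window of 1 kb, 1 gene had a shared peak, 1 a dex-enriched peak and 1 any peak, against 17.7%, 1.0% and 19.4% of all genes tested. With 50 kb, 4 had a shared, 3 a dex-enriched and 6 any peak, against 47.7%, 13.5% and 54.2%. Each of the 10 genes had at least 759 reads in every library.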
